A study of Mus musculus with 12 samples.

Results

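Fatty acid binding and triglyceride synthesis were followed through 7 genes, Fabp1, Fabp2, Fabp5, Cd36, Acsl5, Dgat1 and Dgat2, in bipotential mouse embryonic liver (BMEL) cells. The genes were chosen by name, and each was read from the annotated probe set with the highest mean log2 intensity over 12 arrays. They are 7 of 12393 genes measured and have 12 of the 20380 named probe sets, which served as a check. The names were chosen with results of these arrays known, in particular the high folds of Fabp1 and Fabp2 over basal culture, so values of the 7 genes against basal culture are given as a description, with counts of calls but no p-value.

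Total RNA was hybridised to 1-colour mouse 430A arrays. The lines 9A1 and 14B3 were isolated independently from livers of CBA/J x C57Bl/6J embryos at 14 days post coitum, and no genetic change or drug is named in the labels for any group. Each line was grown in basal culture, as aggregates for 5 days and in Matrigel, a basement membrane gel, for 10 days, with 2 arrays in each of the 6 groups. The other 3 Matrigel samples being at 10 days, Matrigel_14B3 replicate 1 is labelled 5 days, which may be an error of the label. Aggregates and Matrigel thus differ in time as well, and culture type and time in culture cannot be told apart. The design text calls the duplicates biological replicates without saying what separated them, and the p-values below reflect no more than the scatter among these arrays.

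Long-chain fatty acids enter a cell partly through the membrane protein Cd36, and are coupled to coenzyme A by acyl-CoA synthetases such as Acsl5. In the cytosol they are carried by small fatty acid binding proteins: Fabp1 is the liver form, also abundant in gut, Fabp2 the gut form, and Fabp5 the epidermal form. Dgat1 and Dgat2, enzymes unrelated in sequence, each add the last acyl chain to diacylglycerol to make triglyceride, which hepatocytes and enterocytes store in droplets or export in lipoproteins.

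Array intensity medians ranged from 268 to 281. Of 6 hepatocyte markers measured, 6 rose in aggregates and 5 in Matrigel, and their summed intensity was 1474 to 2162 over the basal arrays, 33088 to 53468 over the aggregate arrays and 25682 to 31270 over the Matrigel arrays. Tat, a late hepatocyte enzyme gene, moved least of these, from a mean log2 intensity of 7.65 in basal culture to 7.99 in aggregates and 7.59 in Matrigel. Of 7 enterocyte markers, 6 rose in aggregates and 4 in Matrigel, with sums of 2077 to 3183, 20790 to 26093 and 10188 to 12031 in the same order, while the gut factor gene Cdx1 stayed at 6.15 to 6.33. Of 4 bile duct markers, Epcam, also an epithelial gene of gut, rose from 7.67 in basal culture to 12.67 in aggregates and 12.41 in Matrigel, Krt7 fell in aggregates from 12.04 to 9.75 and Sox9 from 7.49 to 7.02, and Krt19 was at 13.59, 13.32 and 13.56. The list's summed intensity was 15544 to 20057, 16285 to 20093 and 18257 to 22369. In these bulk samples fewer cells of a type and less RNA per cell cannot be told apart, and the part of either marker list in the values below was not tested. As a loose guide to background, 19 genes of kidney, lung, pancreas, nerve and muscle had mean levels from 4.57 to 9.03, with a median of 7.26.

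Fabp1, the liver fatty acid binding protein (Entrez Gene 14080, probe set 1417556_at), was far higher in aggregates and Matrigel than in basal culture and differed between the lines in basal culture. Its log2 intensity was 6.73 and 7.10 in basal 9A1, and 9.15 and 10.59 in basal 14B3. In aggregates it was 14.25 and 14.44 in 9A1, and 14.23 and 14.08 in 14B3. In Matrigel it was 13.25 and 13.67 in 9A1, and 13.15 and 13.39 in 14B3. The lines stood far apart in basal culture, differed by -0.19 in their means in aggregates and overlapped in Matrigel, and no basal array reached an aggregate or Matrigel array. The mean over 4 arrays went from 8.39 ± 1.81 (SD) in basal culture to 14.25 ± 0.15 (SD) in aggregates, 57.9-fold higher, and to 13.37 ± 0.23 (SD) in Matrigel, 31.4-fold higher. Because the basal mean joins unlike lines, the change within each line says more: 7.43 ± 0.35 (SE) log2 units in 9A1 and 4.29 ± 0.35 (SE) in 14B3 for aggregates.

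Fabp2, the intestinal fatty acid binding protein (Entrez Gene 14079, probe set 1418438_at), had the largest fold of the 7 genes in both cultures by the mean over both lines, though in 9A1 alone Fabp1 had the larger fold (172-fold against 133-fold in aggregates and 93.3-fold against 76.5-fold in Matrigel). It was at a log2 intensity of 7.04 and 6.48 in basal 9A1, and 5.91 and 6.81 in basal 14B3. In aggregates the readings were 13.78 and 13.84 in 9A1, and 13.62 and 13.53 in 14B3, and in Matrigel 12.88 and 13.15 in 9A1, and 12.40 and 12.74 in 14B3. The 3 cultures did not overlap on any array. The mean rise over basal culture was 7.13 ± 0.19 (SE) log2 units in aggregates, 140-fold, and 6.23 ± 0.19 (SE) in Matrigel, 75.3-fold. The basal readings of Fabp2, and of Fabp1 in 9A1, lay below the median of the background guide, so these folds may be too small.

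RefSeq promoter windows were found for 4 of the 7 genes, Fabp1, Fabp2, Cd36 and Acsl5. The 250 bases before the start are shown for Fabp1 and Fabp2, since these had the largest folds. Capitals mark matches, on either strand, to AGGTCA, which nuclear receptors bind, to GTTAAT, part of the Hnf1 element, and to the TATA box letters TATAAA. The paired forms, the DR1 element (AGGTCA repeated after 1 base) and the Hnf1 element (GTTAAT, 1 base, and its reverse complement), were searched as well and overlap the single forms. The sequences read 5′ to 3′ in build GRCm38.p6, Fabp1 at chr6:71199629-71199878 and Fabp2 at chr3:122894822-122895071, both on the plus strand.
Fabp1: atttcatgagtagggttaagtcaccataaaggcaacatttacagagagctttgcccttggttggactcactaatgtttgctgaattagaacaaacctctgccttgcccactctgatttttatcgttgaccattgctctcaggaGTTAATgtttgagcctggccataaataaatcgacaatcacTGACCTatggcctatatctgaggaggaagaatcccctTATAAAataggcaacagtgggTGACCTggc
Fabp2: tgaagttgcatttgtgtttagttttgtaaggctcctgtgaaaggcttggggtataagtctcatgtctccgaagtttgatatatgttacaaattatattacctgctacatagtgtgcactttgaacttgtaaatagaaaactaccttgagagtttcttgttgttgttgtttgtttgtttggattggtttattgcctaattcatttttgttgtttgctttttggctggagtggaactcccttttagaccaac

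The Fabp1 window held AGGTCA at 2 places, with first bases 67 and 9 bases before the start, GTTAAT 107 bases before it and TATAAA 30 bases before it. The Fabp2 window, with lower case throughout, had no match to these letters, and the Cd36 window had AGGTCA once. Neither paired form, DR1 or Hnf1, had a match in the Fabp1, Fabp2, Cd36 or Acsl5 window. Of 32851 mouse promoter windows of this length, 14.0% held AGGTCA, 6.43% GTTAAT and 12.4% TATAAA, while the DR1 element occurred in 0.0335% and the Hnf1 element in 0.00913%. A match is a description of the letters only.

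Fabp5, the epidermal fatty acid binding protein (Entrez Gene 16592, probe set 1416021_a_at), did not follow the other 2 carriers. It was at 12.30 and 12.35 in basal 9A1, and 11.84 and 12.06 in basal 14B3. In aggregates it was at 12.45 and 11.16 in 9A1, and 11.41 and 10.60 in 14B3, and in Matrigel at 12.55 and 12.97 in 9A1, and 12.06 and 12.34 in 14B3. Aggregate_9A1 replicate 1 read above all basal arrays and the other 3 aggregate arrays below them. The mean was 12.14 ± 0.23 in basal culture, 11.41 ± 0.78 in aggregates and 12.48 ± 0.39 in Matrigel (SD, n = 4 each). Aggregates were 1.66-fold lower than basal culture, and 1.99-fold lower by the second probe set.

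Cd36, the fatty acid translocase (Entrez Gene 12491, probe set 1450883_a_at), was lowest in basal culture and higher in 9A1 than in 14B3 in the other 2 cultures. Basal readings were 6.21 and 6.15 in 9A1, and 6.30 and 6.27 in 14B3. Aggregate readings were 10.13 and 10.99 in 9A1, and 8.98 and 8.03 in 14B3, and Matrigel readings 7.97 and 8.95 in 9A1, and 7.18 and 7.44 in 14B3. In both cultures all 9A1 arrays read above all 14B3 arrays, and every one lay above the basal arrays. With 2 arrays against 2, a separation of the lines says little by itself. Acsl5 showed it in Matrigel at a difference of -0.07, and the share of all genes separated in this way was not counted. The mean of Cd36 was 9.83-fold above basal culture in aggregates and 3.14-fold in Matrigel. Both folds may be too small, since the basal Cd36 readings lay below the median of the background guide. A second probe set, 1423166_at, gave 11.4-fold and 3.28-fold, while the dimmest, 1450884_at, gave 1.91-fold and 1.09-fold from a basal mean of 4.41.

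Cd36 is also known from macrophages, adipocytes and capillary endothelium, so markers of these cells were read beside it. Of 6 macrophage markers, Csf1r (9.35 to 10.84 in mean log2 intensity) and Ptprc (5.59 to 6.01) rose in aggregates and Cd14 (10.79 to 10.10) fell. In Matrigel Csf1r (to 9.95) and Cd68 (by 0.46, to 7.46) rose and Cd14 (to 10.34) fell. The list's summed intensity was 2583 to 3407 over the basal, 2756 to 5244 over the aggregate and 2353 to 3601 over the Matrigel arrays. The 5 adipocyte markers summed to 731 to 873, 867 to 1027 and 688 to 969, with Lipe the one marker called in either culture, and Adipoq stayed at 5.42 to 5.53. The 5 endothelial markers summed to 661 to 899, 786 to 875 and 586 to 1101, with none called in aggregates and Cdh5 (7.40 to 7.90) higher in Matrigel. RMA values are never 0, so no marker was at 0, and their part in the Cd36 levels was not tested.

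Acsl5, an acyl-CoA synthetase abundant in gut and liver (Entrez Gene 433256, probe set 1428082_at), was bright in every culture and moved least among the genes that were higher. It was at 11.16 and 11.21 in basal 9A1, and 11.65 and 11.72 in basal 14B3. It reached 12.72 and 12.88 in 9A1 aggregates, 12.58 and 12.21 in 14B3 aggregates, and 12.24 to 12.33 on the 4 Matrigel arrays. No basal array overlapped the other cultures. Against the basal mean, aggregates were 2.24-fold and Matrigel 1.80-fold higher.

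Of the enzymes of the last step, Dgat1 (Entrez Gene 13350, probe set 1418295_s_at, a kind that may also bind related transcripts) separated the cultures fully. It was at 9.07, 9.10, 9.17 and 8.99 on the basal arrays, 12.18, 12.41, 12.08 and 11.93 on the aggregate arrays, and 10.63, 10.75, 10.46 and 10.61 on the Matrigel arrays, with 9A1 before 14B3. Every Matrigel array lay between the basal and the aggregate arrays. Its mean was 8.37-fold higher in aggregates and 2.89-fold higher in Matrigel. Dgat2 (Entrez Gene 67800, probe set 1422678_at), in the same order, was at 9.45, 9.92, 10.11 and 10.59 in basal culture, 13.08, 12.22, 12.51 and 12.41 in aggregates, and 12.36, 12.33, 12.26 and 11.67 in Matrigel. Unlike Dgat1 its aggregate and Matrigel readings overlapped, and it was 5.82-fold and 4.40-fold higher than in basal culture. The second Dgat2 probe set gave 4.37-fold and 3.03-fold.

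**Figure D1:**
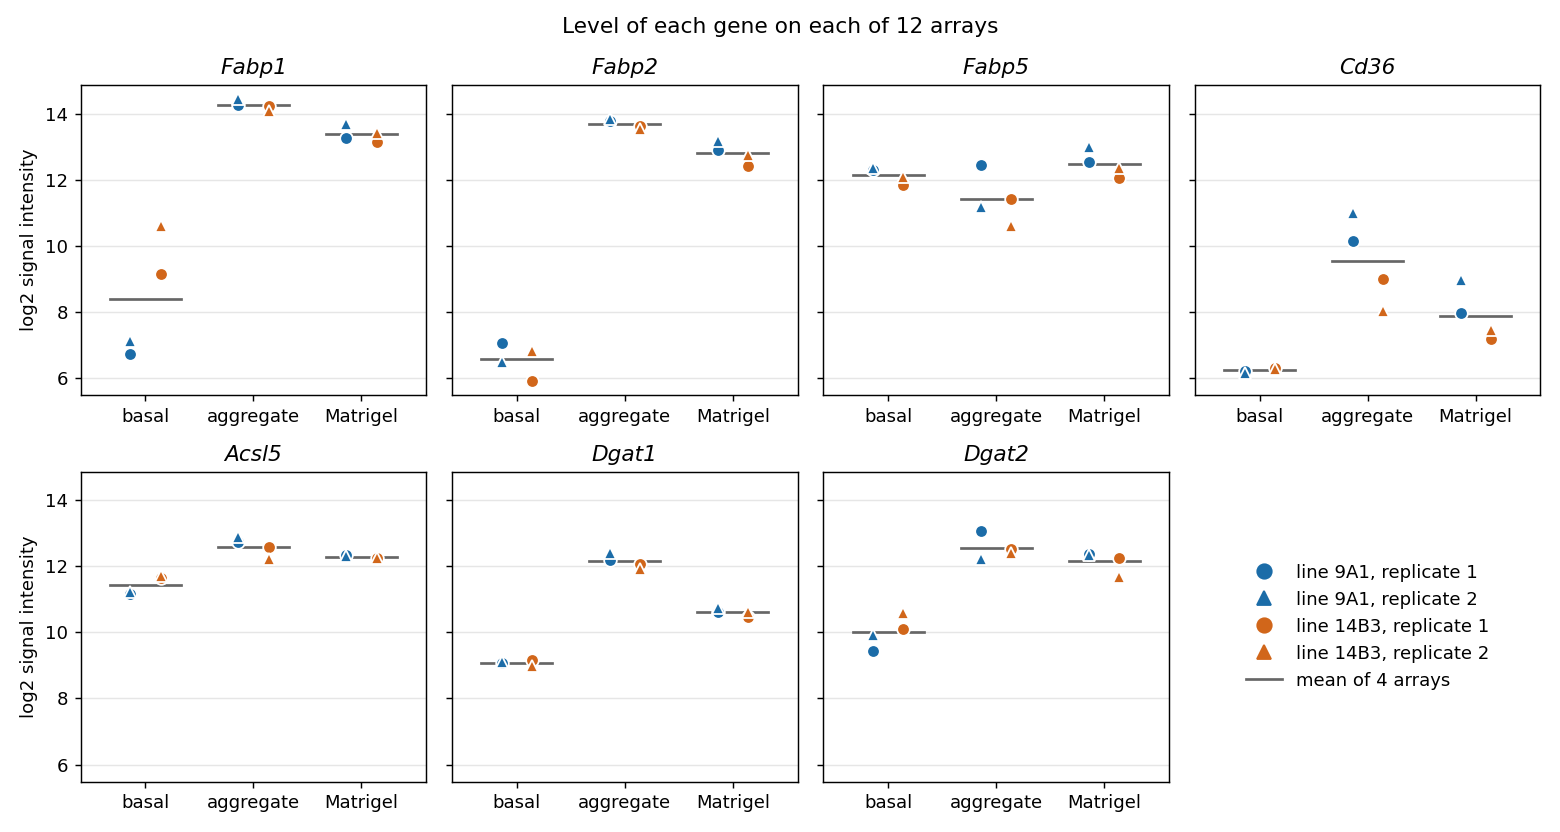
Log2 signal intensity (y axis) of the 7 genes on each of 12 arrays, by culture (x axis), with line by colour, replicate by shape and a bar for the mean of 4 arrays. Fabp1 reads 6.73 to 10.59 in basal culture with the lines apart, and 14.08 to 14.44 in aggregates. Dgat1 shows 3 separate groups, and Fabp5 is the one gene with a lower mean in aggregates than in basal culture.

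Taken against basal culture, 6 of the 7 genes were called higher in aggregates and Fabp5 lower, where 22.9% of all 12393 genes were called higher and 23.4% lower (46.3% in all). In Matrigel 6 were called higher, against 14.1% of all genes (28.4% in either direction), and Fabp5 was not called. The same 6 did not overlap with basal culture on any array, as did 24.6% of all genes, upward, in aggregates and 12.6% in Matrigel. Since the genes were chosen with these comparisons known, nothing is read from those shares. The median log2 change of the 7 was 3.06 in aggregates and 1.65 in Matrigel, beside 0.10 and -0.04 for all genes. Fabp5 lost its lower call with 50 intensity units added before log2 (-0.72), in 9A1 alone (-0.52), without any 1 of the 4 basal arrays (-0.79 to -0.68), without aggregate_9A1 replicate 2 (-0.41) and without aggregate_14B3 replicate 2 (-0.53). Acsl5 was not called in Matrigel in 14B3 alone (0.57).

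**Figure D2:**
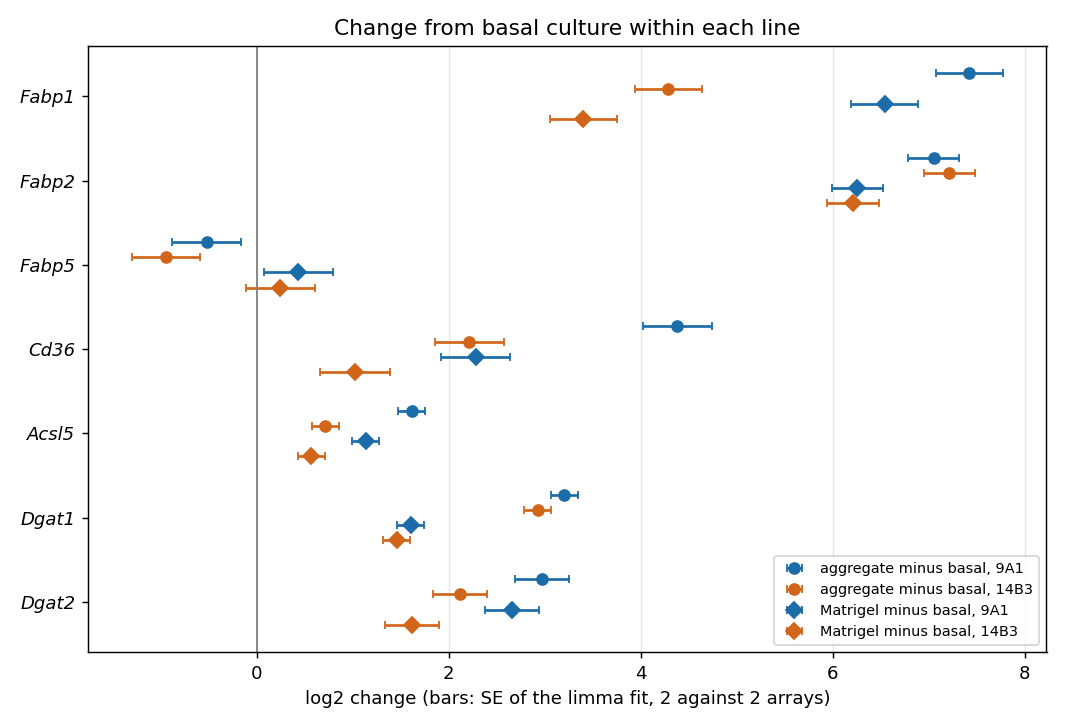
Log2 change from basal culture (x axis) of each gene (y axis) within each line, circles for aggregates and diamonds for Matrigel, with bars for the SE of the limma fit (2 against 2 arrays). Fabp1 lies at 7.43 in 9A1 and 4.29 in 14B3 for aggregates, while Fabp2 lies at 7.05 and 7.22.

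Matrigel and aggregates were then set against each other, to ask whether these cultures give the same levels. Dgat1 was lower in Matrigel by a log2 change of -1.53 ± 0.10 (SE), 2.90-fold, Cd36 by -1.64 ± 0.25 (3.13-fold), and Fabp2 and Fabp1 by -0.90 ± 0.19 and -0.88 ± 0.25. Limma's adjusted p-values over all genes were 2.65e-06 for Dgat1, 0.000595 for Cd36, 0.00417 for Fabp2 and 0.0204 for Fabp1. These arrays were among those known when the genes were chosen, so no p-value of this comparison is an independent test. Acsl5 was lower by -0.31 ± 0.10 (adjusted p = 0.0382), with aggregate_14B3 replicate 2 below all Matrigel arrays. Fabp5 went the other way, higher in Matrigel by 1.07 ± 0.25 (adjusted p = 0.00827), although aggregate_9A1 replicate 1 lay within the Matrigel readings. Dgat2 was at -0.40 ± 0.20 (SE) with an adjusted p of 0.153, so the fall seen in Dgat1 was not detected in Dgat2. Its second probe set gave -0.53, just over the threshold (limma adjusted p = 0.0545). The difference between these genes was itself not tested. In all 5 genes were lower and 1 higher, where 12.7% of all genes were lower and 13.9% higher (26.7% in all). Fabp1, Fabp2 and Dgat1 did not overlap between these cultures, as did 13.5% of all genes in this direction. Nothing is read from these shares either, given how the genes were chosen.

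The calls of Acsl5 and Fabp1 lay close to the threshold. That of Acsl5 was lost without any 1 array other than aggregate_9A1 replicate 1 and aggregate_14B3 replicate 2, with adjusted p up to 0.13 and changes of -0.41 to -0.22 over all 12 arrays left out, and also with array weights (0.0581) and in 14B3 alone (-0.15, adjusted p = 0.643). That of Fabp1, with changes of -0.99 to -0.78, was lost without aggregate_9A1 replicate 2 (adjusted p = 0.0621), aggregate_14B3 replicate 1 (0.053), Matrigel_9A1 replicate 1 (0.0823) or Matrigel_14B3 replicate 1 (0.0664), and its second probe set gave -0.65 (adjusted p = 0.106). It was lost too with array weights (0.0741) and in 14B3 alone (-0.88, adjusted p = 0.159). Dgat2 passed without aggregate_9A1 replicate 2 (-0.61, adjusted p = 0.0344). Dgat1, Cd36, Fabp2 and Fabp5 passed with each of the 12 arrays left out in turn, but Fabp5 did not in 9A1 alone (0.96, adjusted p = 0.102).

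The lines were compared next, again for genes chosen with results of these arrays known, which limits the p-values in the same way. Over the 3 cultures Cd36 was lower in 14B3 than in 9A1 by a log2 difference of -1.04 ± 0.21 (SE, 6 against 6 arrays, limma adjusted p = 0.0114), and Fabp1 was higher by 0.86 ± 0.20 (adjusted p = 0.0267). These 2 of 7 genes stand beside 6.01% of all genes called for line, 2.57% higher and 3.45% lower. Fabp5 was at -0.58 ± 0.21 (adjusted p = 0.155), Fabp2 at -0.36 ± 0.15 (0.26), Dgat1 at -0.15 ± 0.08 (0.404), Dgat2 at 0.03 ± 0.16 (0.965) and Acsl5 at 0.00423 ± 0.08 (0.99). The Cd36 call held with each array left out (adjusted p up to 0.0355), while its dimmest probe set gave -0.39 (0.132). The second Fabp1 probe set gave 0.82 (adjusted p = 0.0657), and the Fabp1 call was also lost with array weights (0.0638), with 50 intensity units added (0.08) and without basal_9A1 replicate 1 (adjusted p = 0.0772), aggregate_9A1 replicate 1 (0.0624), aggregate_14B3 replicate 1 (0.0622), aggregate_14B3 replicate 2 (0.0582), Matrigel_9A1 replicate 1 (0.0802) or Matrigel_14B3 replicate 2 (0.0655). Fabp5 passed without aggregate_9A1 replicate 2 (-0.79, adjusted p = 0.0103), and Fabp2 without basal_14B3 replicate 2 (-0.51, adjusted p = 0.0482).

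The average over cultures joined unlike patterns. Fabp1 differed between the lines by 2.96 ± 0.35 (SE) log2 units in basal culture, and by -0.19 ± 0.35 in both aggregates and Matrigel. Cd36 differed by 0.11 ± 0.36 in basal culture, -2.06 ± 0.36 in aggregates and -1.15 ± 0.36 in Matrigel. At basal readings below the guide's median a line difference in Cd36 may not be visible. Within single cultures, limma called Fabp1 in basal culture (adjusted p = 0.00095) and Cd36 in aggregates (0.0126), and the Cd36 difference in Matrigel did not pass (0.135). Acsl5 was at 0.49 ± 0.14 in basal culture and -0.41 ± 0.14 in aggregates, and Dgat2 at 0.66 ± 0.28 and -0.19 ± 0.28. Fabp2 and Dgat1 were within 0.45 log2 units between lines in every culture.

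**Figure D3:**
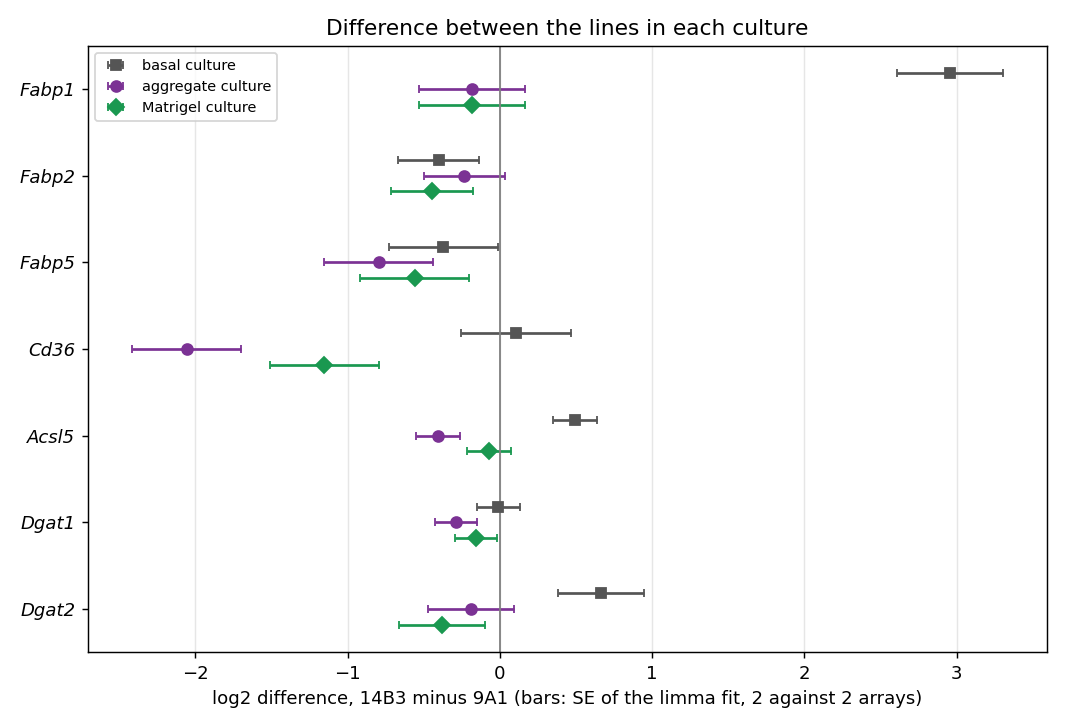
Log2 difference of 14B3 minus 9A1 (x axis) for each gene (y axis) in basal culture (squares), aggregates (circles) and Matrigel (diamonds), with bars for the SE of the limma fit (2 against 2 arrays). Fabp1 stands at 2.96 in basal culture and -0.19 in the others, and Cd36 at -2.06 in aggregates.

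The test of whether the lines responded differently called Fabp1 among the 7 genes. Its aggregate response was smaller in 14B3 by a log2 difference of -3.14 ± 0.49 (SE, limma adjusted p = 0.0174), and its Matrigel response by -3.14 ± 0.49 (adjusted p = 0.0131), beside 0.468% (0.169% larger, 0.299% smaller) and 0.686% (0.339% larger, 0.347% smaller) of all genes. Both differences share the basal arrays, so they are not independent of each other. These arrays were also among those known when Fabp1 was chosen, so neither p-value is an independent test. Left out in turn, the arrays gave -3.86 to -2.42 for either culture. The aggregate call was lost without basal_9A1 replicate 1 (adjusted p = 0.0931), aggregate_9A1 replicate 2 (0.0505), aggregate_14B3 replicate 1 (0.0593) or aggregate_14B3 replicate 2 (0.0916), and the Matrigel call without basal_9A1 replicate 1 (0.0703), Matrigel_9A1 replicate 2 (0.058) or Matrigel_14B3 replicate 1 (0.0529). The second Fabp1 probe set gave -2.75 (adjusted p = 0.0996) and -2.79 (adjusted p = 0.0703).

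The aggregate response of Cd36 differed by -2.16 ± 0.51 (SE, adjusted p = 0.121) between the lines. It passed with the replicate block (adjusted p = 0.0411), which raised the calls over all genes from 58 to 118 for aggregates and from 85 to 165 for Matrigel, and without aggregate_9A1 replicate 1 (-2.60, adjusted p = 0.0485). Acsl5 was at -0.90 ± 0.20 (adjusted p = 0.103), also without a call under the block. Dgat2 was at -0.85 ± 0.40 (adjusted p = 0.767), Fabp5 at -0.42 ± 0.51, Dgat1 at -0.28 ± 0.20 and Fabp2 at 0.17 ± 0.38, each with an adjusted p of 0.9997.

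Genes of the surrounding pathway were read as 7 lists by role, 67 of 83 genes being measured. Of these 67, 40 rose and 4 fell in aggregates (22.9% and 23.4% of all genes), 30 rose and 4 fell in Matrigel (14.1% and 14.3%), and between the 2 cultures Matrigel had 4 of them higher and 21 lower (13.9% and 12.7%). The lists too were chosen with earlier results of these data known, so nothing is read from these shares. Lists follow in order from carriers and uptake to export.

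The other fatty acid binding proteins measured, Fabp3, Fabp4, Fabp6, Fabp7 and Fabp9, gave 0 calls of 5 in limma in either culture against basal, and 0 at an unadjusted p under 0.05. Without aggregate_9A1 replicate 2, 1 was called in aggregates and 1 in Matrigel, and without aggregate_9A1 replicate 1, 1 in Matrigel. Their means in basal culture were 4.83 (Fabp9) to 6.88 (Fabp4), all below the median of the background guide. The gene called was Fabp7, the brain form, which was at 0.64 ± 0.32 (SE) in aggregates (adjusted p = 0.136, down to 0.000117 with 1 array left out) and 0.66 ± 0.32 in Matrigel (0.173, down to 0.00448). Among 5 uptake genes 3 rose in aggregates and 2 in Matrigel, led by Scarb1, the lipoprotein receptor SR-BI (1.69 ± 0.17 and 0.97 ± 0.17, SE). The Matrigel count was 1 without basal_9A1 replicate 1 or basal_14B3 replicate 1. Of 10 further acyl-CoA synthetases and binding proteins 4 rose and 1 fell in aggregates. Slc27a4, the main fatty acid transport protein of enterocytes, rose by 3.24 ± 0.12 in aggregates and 2.29 ± 0.12 in Matrigel, and Dbi, the acyl-CoA binding protein, by 0.94 ± 0.11 in aggregates. Acsbg1, a synthetase known from brain and steroid-making tissues, fell in aggregates (-1.72 ± 0.13).

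Of 15 genes of earlier glycerolipid steps 10 rose and 2 fell in aggregates, and 6 rose and 2 fell in Matrigel. Mogat2, which makes diacylglycerol from monoacylglycerol in the gut, rose by 2.90 ± 0.13 (SE) log2 units in aggregates and 1.92 ± 0.13 in Matrigel. The phosphatidate phosphatase gene Lpin3 rose by 1.53 ± 0.10 and 0.93 ± 0.10. Gpam, the mitochondrial glycerol phosphate acyltransferase, was at -0.02 ± 0.15 in aggregates (adjusted p = 0.941), while Agpat5 and Gpat4, later and parallel acyltransferases, fell there by 1.34 and 0.50 on the log2 scale. The median change of the list was 0.50 in aggregates. Dgat2 and Dgat1, at 2.54 and 3.06, were named with their results known, and Mogat2 of this list lay between them.

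Of 17 droplet and lipolysis genes 9 rose and 1 fell in aggregates, and 7 rose and 1 fell in Matrigel, 8 calls that became 5 without basal_9A1 replicate 1 or basal_14B3 replicate 1. Cideb, the droplet protein of hepatocytes and enterocytes, rose by 3.51 ± 0.09 (SE) and 2.72 ± 0.09, the droplet coat gene Plin3 by 1.96 ± 0.14 and 1.25 ± 0.14, and Cidec by 1.93 ± 0.15 in each. The common coat gene Plin2 was bright throughout, at a mean of 12.15 in basal culture, 12.67 in aggregates and 12.54 in Matrigel. G0s2, an inhibitor of lipolysis, fell by 0.98 and 1.11, with a basal SD of 1.28.

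All 4 genes of triglyceride loading onto lipoproteins rose in aggregates and in Matrigel. The triglyceride transfer protein gene Mttp rose by 5.36 ± 0.15 (SE) and 4.32 ± 0.15, Tm6sf2 by 4.90 ± 0.10 and 3.59 ± 0.10, Apob by 2.23 ± 0.17 and 1.53 ± 0.17, and the secretory coat gene Sar1b by 1.47 ± 0.09 and 0.73 ± 0.09. All 4 were lower in Matrigel than in aggregates, by log2 changes of -1.31 (Tm6sf2) to -0.70 (Apob). Of the 7 genes, Dgat1, Cd36, Fabp2, Fabp1 and Acsl5 were called in that direction. Dgat2 was not called (-0.40), and Fabp5 was called higher (1.07). Of 11 regulators 10 rose in aggregates and 8 in Matrigel. Mlxipl, a glucose-sensing activator of lipid synthesis, rose by 2.12 ± 0.25 in aggregates, Nr1h3, an oxysterol receptor, by 1.19 ± 0.12, Ppara by 0.99 ± 0.14 and Hnf4a by 0.94 ± 0.11. Ppard was at 0.06 ± 0.10 (adjusted p = 0.629).

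**Figure D4:**
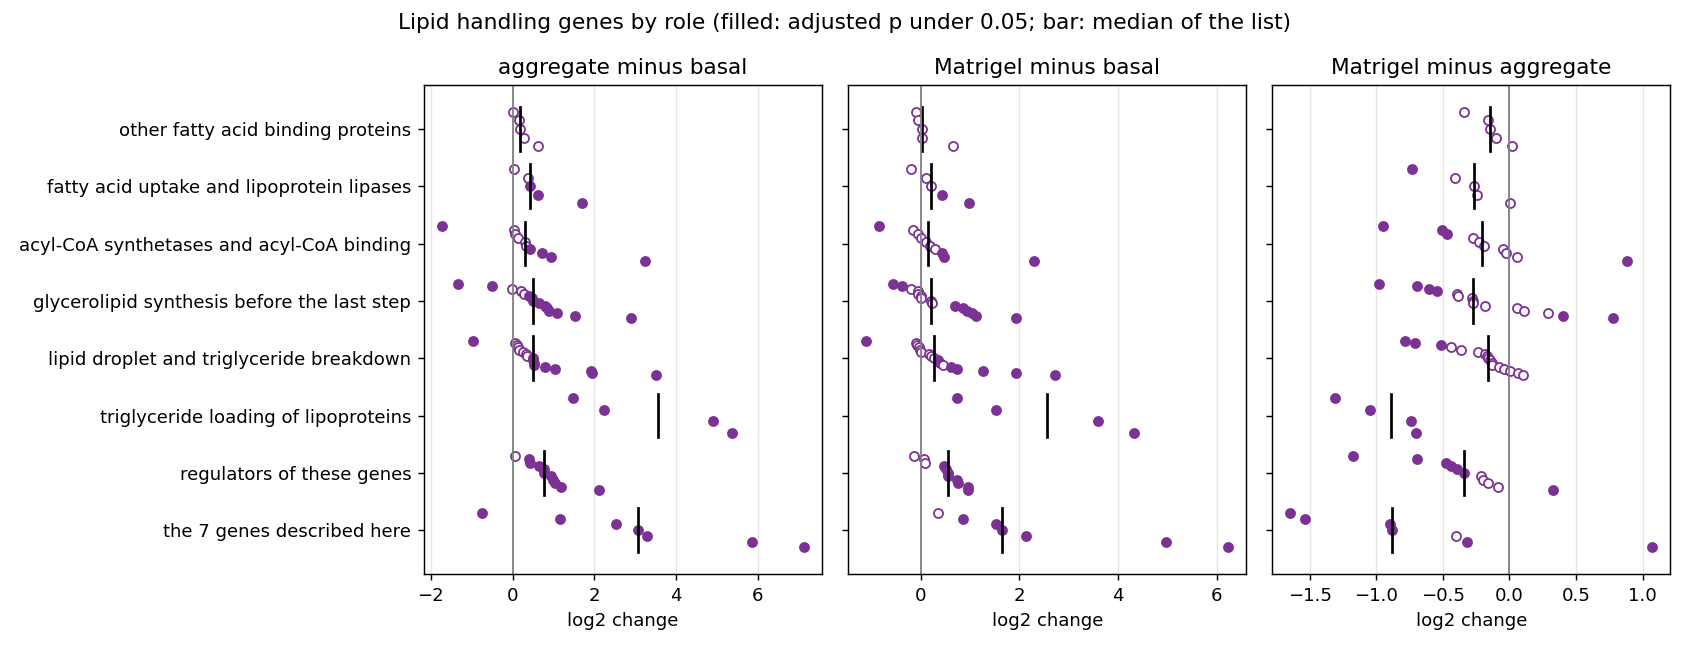
Log2 change (x axis) of each measured gene in 7 lists of lipid handling genes and of the 7 genes described here (y axis), for 3 comparisons of cultures, filled where the limma adjusted p was under 0.05, with a bar for the median. The 4 lipoprotein loading genes lie at 1.47 to 5.36 in aggregates against basal culture, and the other fatty acid binding proteins at 0.0047 (Fabp6) to 0.64 (Fabp7).

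Genes with the nearest pattern over the 12 arrays were found by Pearson's r of log2 intensity, as a description. The 12 arrays fall into 3 cultures, so r mainly follows culture. Nearest to Fabp1 were the keratin gene Krt20 (r = 0.99), Epb41l4b and the microvillus gene Vil1, and nearest to Fabp2 were Ugt2b5, Lypd8 and Rnf103, all at 0.99 or above. Nearest to Cd36 were the brush border enzyme gene Treh (0.99), the guanylin receptor gene Gucy2c (0.98) and the guanylin gene Guca2a (0.98). Dgat1 was nearest to AU040320, the nuclear receptor gene Hnf4g and Sar1b (0.99 or above), Acsl5 to Iah1, Map7 and Hgfac (0.98), and Dgat2 to Myh14, Lgals3bp and the lysosomal lipase gene Lipa (0.98). The nearest to Fabp5, Smad7, Mrpl23 and Ier3, reached 0.93, 0.92 and 0.91.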

How the data were processed

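The submitters' processing notes name RMA and R 2.3.1. The authors deposited signal intensity per probe set, linear in its values (14.4 to 27318). Scanner files were not used here, so background correction and scan batches could not be varied. RMA can shrink differences near background. The log2 of each deposited intensity was taken. Of 22690 probe sets, 20380 carried 1 gene symbol, 691 several, 1555 none and 64 were controls; symbols come from GEO's platform annotation, which can be old, and 12369 of 12393 genes matched a mouse gene table by gene ID. A gene was read from its brightest probe set, with no filter on dim genes. Limma 3.58.1 (lmFit, eBayes; R 4.3.3) fitted 6 group means, leaving 6 residual degrees of freedom. Tests were two-sided, with Benjamini-Hochberg adjustment over all genes at 0.05, and the code was tested on simulated data. Called means an adjusted p under 0.05. Members, lists and the rules for named genes (the 7 by name, the 3 nearest patterns each, and list genes) were chosen with earlier results of these data known. Differences between replicates 2 and 1 correlated between groups in 15 of 15 pairs (r from 0.10 to 0.64), so a replicate block within each line was also fitted. The correlation crossed the lines, with the highest r between Matrigel_9A1 and Matrigel_14B3. A block shared by both lines was not fitted, and the main fit holds no block. Other alternatives were leaving out each array, other scalings, an offset of 50, averaging the probe sets of each gene, fitting all probe sets, a filter on dim genes, array weights and each line alone. Precision is limited by the number of arrays. Figures used Python 3.11.15 and matplotlib 3.10.9.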

Additional observations from a re-analysis of the deposited data

Results flagged for a closer look

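The log2 change of Fabp1 was called smaller in 14B3 than in 9A1. The difference was -3.14 for aggregates (limma adjusted p = 0.0174) and -3.14 for Matrigel (adjusted p = 0.0131). Both rest on the same basal arrays, where the lines differed by 2.96, against -0.19 in aggregates and in Matrigel. Each call was lost without some single arrays, and the second probe set passed for neither (limma adjusted p = 0.0996 and 0.0703). In Matrigel, the Dgat2 reading of Matrigel_14B3 replicate 2, a log2 intensity of 11.67, stood apart from the other 3 arrays (12.26 to 12.36), its gap taking up 0.845 of the group's range. Of 21 groups of 4 arrays looked at this way, chance would set apart about 1 in 20.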

How the results depend on the processing

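With the replicate block within each line, the calls over all genes went from 745 to 1119 for 14B3 minus 9A1, from 58 to 118 for the difference between lines in the aggregate response and from 85 to 165 for that in the Matrigel response, and 2 of the 7 genes were called in place of 1 for the aggregate response, the second being Cd36; it changed no other call of the 7. With 14B3 arrays only, the calls over all genes were 3813 for aggregate minus basal (5735 with all arrays), 1791 for Matrigel minus basal (3519) and 1406 for Matrigel minus aggregate (3307), and with 9A1 arrays only 2146 and 1869 for the last 2. Fitting every probe set gave 9134, 5397 and 5093 probe sets. With genes above the median level only, which leaves out Cd36, 479, 19 and 37 genes were called for line and for the line difference in the aggregate and Matrigel responses, and 1 of the 7 genes for line. That count was also 1, in place of 2, with array weights and with 50 intensity units added before log2. The added units took the Fabp1 call from both line differences in response, leaving 0 of the 7 genes in limma (adjusted p = 0.0775 and 0.061). Leaving out 1 array gave 1 to 3 of the 7 genes and 494 to 747 genes in all for line, 0 to 2 and 23 to 98 for the aggregate response by line, and 0 to 1 and 30 to 105 for the Matrigel response by line.

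Of 864 values of the 7 genes under alternatives, 790 kept direction and side of the threshold and 18 changed sign, none of them called. For 14B3 minus 9A1 these were Acsl5, at -0.016 with arrays centred on their median and -0.056 to 0.065 without 1 array, and Dgat2, at -0.11 to 0.17 without 1 array. For the difference in aggregate response they were Fabp2 (-0.29 to 0.62) and Fabp5 (-1.07 to 0.22) without 1 array, and for Matrigel Fabp2 (0.028 after quantile normalization, -0.50 to 0.41 without 1 array) and Fabp5 (-0.40 to 0.026). Of 840 list counts 86 moved by over 1.5 times. Where no cause is named, it was not tested.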
